A study of Mus musculus with 21 samples.

Results

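The fibulins and the elastic matrix proteins they bind were examined in endothelial-sorted cells of mouse breast tumours, as a set of 8 genes out of the 45706 genes of the deposited expression table. The 8 genes were chosen by symbol, and chosen because fibulin-2 (Fbln2) was lower in knockout than in wild-type libraries in all 4 experiments. The genotype difference of Fbln2 is therefore the reason for the choice and is given below as a description, with no test. The set comprises the fibulins Fbln1, Fbln2, Fbln5, Efemp1 and Efemp2, and the fibre proteins Eln, Fn1 and Fbn1. Of these, 7 were among the 13503 genes that reached at least 1 TPM (a level that corrects reads for the length of the gene and for the size of the library) in at least 10 libraries. Fbln1 was not.

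Tumours were grown from E0771.lmb, a mouse mammary carcinoma line, in adult mice that had received tamoxifen, and CD31-positive cells were sorted from tumours taken 14 to 16 days after the cells were injected. The wild-type group (WT) held 11 libraries from 9 tumours, and the knockout group (KO) held 10 libraries from 8 tumours. KO mice were Shb flox/flox; Cdh5-CreERt2, so that the adaptor protein Shb was deleted in cells that express the endothelial cadherin Cdh5, once tamoxifen had activated the Cre recombinase. The protocol text also describes a blood-cell line, Shb flox/flox; Vav1-cre, and a magnetic bead step for CD45-positive cells before CD31 sorting, and no library is labelled with that line. The labels do not say whether the wild-type mice carried the floxed alleles or the Cre. The number of WT libraries was 3 in each experiment except the third, where it was 2, and KO libraries numbered 4 in experiment 2 and 2 in each other experiment. KO replicate 3 of experiment 2 is the header of a pair of columns with different values, here called 3a and 3b.

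Shb stood at 17.3 to 74.3 TPM in WT and at 6.00 to 52.7 TPM in KO, ranges that overlap, and a value per gene does not separate deleted exons from the rest. Endothelial markers were present in all 21 libraries, with Pecam1, which encodes CD31, between 95.04 and 1960 TPM. Pecam1 was lowest in WT replicate 2 of experiment 4 (95.04 TPM), KO replicate 2 of experiment 4 (242 TPM) and WT replicate 1 of experiment 2 (461 TPM). The summed level of 12 endothelial markers ran from 575 to 11666 TPM in WT and from 1670 to 10896 TPM in KO. RNA of other cell types was present too. The summed level of 12 pericyte and smooth muscle markers ran from 48.6 to 260 TPM in WT and from 15.0 to 191 TPM in KO, that of fibroblast markers from 54.3 to 1064 TPM and from 31.6 to 216 TPM, and that of leukocyte markers from 154 to 5044 TPM and from 114 to 407 TPM. That of 10 tumour epithelium markers ran from 2.34 to 272 TPM in WT and from 0 to 143 TPM in KO. Only 1 of these 10, Krt8, was kept by the filter, with a mean of 46.0 TPM in WT and 11.2 TPM in KO. Of those not kept, Epcam, Krt18, Krt7, Krt19, Cldn4 and Krt14 averaged higher in KO, and Cdh1, Cldn7 and Krt5 higher in WT. Krt8 alone therefore does not stand for the list. On the log2(TPM + 1) scale Krt8 stood at 8.08, 6.14 and 6.07 in the 3 libraries lowest in Pecam1, in the order named. It also stood at 6.90 in WT replicate 2 of experiment 3. The number of genes above 0 ran from 12178 to 20526 over the libraries, and the mitochondrial share of TPM from 1.27% to 23.0%. In such sorted bulk samples, fewer cells of a type and less RNA per cell cannot be told apart.

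Fibulins are secreted glycoproteins built from calcium-binding EGF-like repeats and a shared C-terminal module. They sit at the junction of basement membranes, microfibrils and elastin. Fibrillin-1, encoded by Fbn1, forms the microfibrils onto which tropoelastin, the product of Eln, is laid down, and in mice fibulin-5 (Fbln5) and fibulin-4 (Efemp2) are needed for that assembly. Fibulin-2 binds fibronectin, nidogen, perlecan, versican and fibrillin-1, and in vessels it lies in the subendothelial matrix. Fibronectin, the product of Fn1, is a ligand of integrins on endothelial cells.

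The start regions of the 3 genes whose levels are compared most closely below are shown first, as the genomic letters around an annotated RefSeq start. RefSeq windows of 250 bases before to 50 bases after an annotated start (build GRCm38.p6) were found for 6 of the 8 genes, and Eln and Fn1 had none in the table used. Capitals mark the GC box GGGCGG and the CCAAT box CCAAT, each searched on both strands; TATAAA and the AP-1 letters TGANTCA were searched too and are in none of the 3. The Fbln2 window lies at chr6:91212514-91212813 on the plus strand, and its start site is 309 bases downstream of the gene start that GENCODE gives, so that the whole window lies inside that gene. The Fbn1 window lies at chr2:125506389-125506688 on the minus strand, with its start site 1555 bases downstream of the GENCODE gene start. Of 2 Fbln5 windows in the table, the one shown, at chr12:101819070-101819369 on the minus strand, has its start site 64 bases upstream of the GENCODE gene start and is the nearer; the other, at chr12:101818435-101818734, held neither a GC box nor a CCAAT box.
Fbln2: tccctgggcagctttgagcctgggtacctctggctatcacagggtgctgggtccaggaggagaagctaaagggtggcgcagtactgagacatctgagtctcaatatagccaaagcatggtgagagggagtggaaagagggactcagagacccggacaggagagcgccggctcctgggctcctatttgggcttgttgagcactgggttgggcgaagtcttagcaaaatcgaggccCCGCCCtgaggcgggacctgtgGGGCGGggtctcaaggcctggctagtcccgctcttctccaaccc
Fbn1: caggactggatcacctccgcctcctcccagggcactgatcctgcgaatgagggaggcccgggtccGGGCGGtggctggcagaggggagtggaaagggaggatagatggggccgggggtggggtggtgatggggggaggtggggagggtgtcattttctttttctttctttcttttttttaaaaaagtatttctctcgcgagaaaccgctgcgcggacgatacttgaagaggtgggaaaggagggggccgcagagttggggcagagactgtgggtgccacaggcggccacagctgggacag
Fbln5: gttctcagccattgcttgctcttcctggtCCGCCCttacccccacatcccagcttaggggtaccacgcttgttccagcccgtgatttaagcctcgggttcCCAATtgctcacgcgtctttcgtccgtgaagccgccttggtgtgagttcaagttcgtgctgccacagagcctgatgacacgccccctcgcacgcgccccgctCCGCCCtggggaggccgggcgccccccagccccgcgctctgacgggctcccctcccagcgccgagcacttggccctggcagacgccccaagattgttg
The Fbln2 window held 2 GC boxes, at positions -16 and 7 counted from the start, and had a GC content of 60.3%. The Fbn1 window held 1, at -185, and the Fbln5 window shown held 2, at -221 and -48, with a CCAAT box at -150. Among all 32851 windows of the same length, 35.7% held a GC box, 37.4% a CCAAT box, 13.6% TATAAA and 7.81% the AP-1 letters, and the median GC content was 52.7%. A match of letters is a description of the window and not a site of binding.

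TPM is a level per length, so the members can be set beside each other. In WT, Fn1 was the most abundant, at 464 ± 265 TPM (SD, n = 11), followed by Fbln2 at 181 ± 56.3 TPM and Eln at 92.1 ± 48.1 TPM. Fbln5 stood at 47.6 ± 28.9 TPM, Fbn1 at 23.0 ± 6.63 TPM, Efemp2 at 22.4 ± 15.7 TPM and Efemp1, which encodes fibulin-3, at 10.3 ± 6.89 TPM. Fbln1 was close to 0, at 0.834 ± 1.53 TPM. Fibulin-2 was thus the most abundant fibulin message in the WT libraries, ahead of the fibulins best known from elastic fibre assembly. These are levels in bulk RNA, and which of the cell types present made the message was not tested.

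The order of neighbours was compared within the 11 WT libraries with an exact two-sided sign-flip permutation test over 2048 arrangements, with p-values adjusted (Benjamini-Hochberg) over 7 neighbour pairs. The order itself was set from the mean levels in these same libraries, and Fbln2 was chosen for a level higher in WT than in KO. The p-values account for neither choice. Fn1 exceeded Fbln2 by 1.16 on the log2(TPM + 1) scale, in 9 of 11 libraries (exact adjusted p = 0.0154). Fbln2 exceeded Eln by 1.42 in 11 of 11 libraries (exact adjusted p = 0.00684). Eln exceeded Fbln5 by 0.93 in 10 of 11 libraries (exact adjusted p = 0.00684). In the middle of the order the neighbours did not differ beyond their spread. The differences were 0.59 for Fbln5 over Fbn1 (exact adjusted p = 0.254), 0.43 for Fbn1 over Efemp2 (exact adjusted p = 0.484) and 0.96 for Efemp2 over Efemp1 (exact adjusted p = 0.270). Efemp1 exceeded Fbln1 by 2.53 (exact adjusted p = 0.00684), in 10 of 11 libraries. Without the 3 libraries lowest in Pecam1, of which WT holds a pair, Fbln5 exceeded Fbn1 by 1.02 (exact adjusted p = 0.0328).

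**Figure D1:**
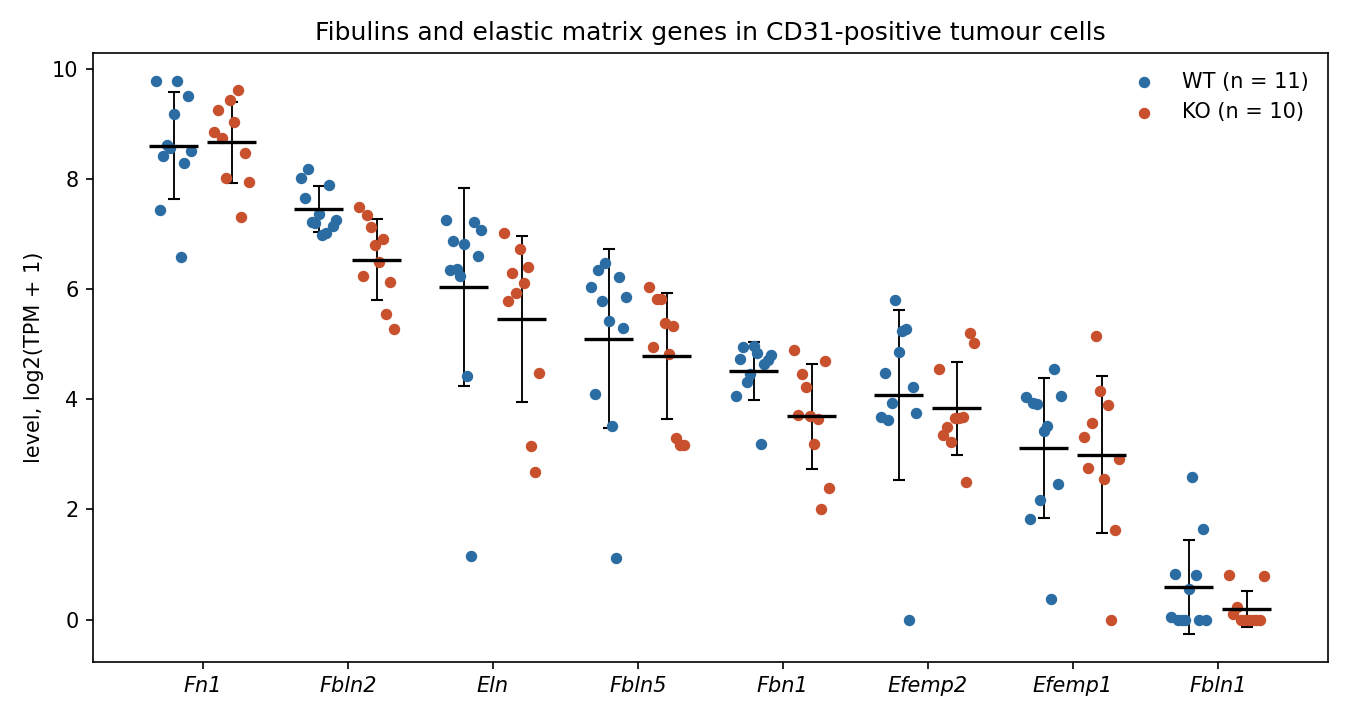
Level of each of the 8 genes on the log2(TPM + 1) scale in the 11 WT (blue) and 10 KO (orange) libraries; each point is a library, the black bar is the mean and the whisker is 1 SD. Fn1 and Fbln2 lie highest and Fbln1 near 0, and the WT and KO points overlap for every gene.

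The members also differed in how far their levels spread over the 21 libraries. Eln spanned 123-fold between its lowest and highest library and Fbln5 spanned 75.0-fold. Fbn1 spanned 9.94-fold, Fn1 9.27-fold and Fbln2 7.62-fold. Fbln1, Efemp1 and Efemp2 were listed at 0 in at least 1 library, so no fold is given for them. The spans of Eln, Fbln5 and Fn1 rest in part on 1 library, WT replicate 2 of experiment 4. Without it Eln spanned 28.2-fold, Fbln5 11.0-fold, Fn1 5.60-fold and Fbln2 7.62-fold. In that library, the one with the least Pecam1, Eln was at 1.23 TPM and Fbln5 at 1.17 TPM, the lowest value of each gene over all libraries, while Fbln2 was at 128 TPM.

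Fbln2, the fibulin for which the set was chosen, had WT values of 126 TPM at the lowest, 151 TPM at the median and 288 TPM at the highest. In KO the lowest was 37.8 TPM, the median 99.7 TPM and the highest 179 TPM. The groups overlapped over the whole series, and 7 of the 10 KO libraries lay below every WT library.

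In experiment 1, Fbln2 was at 258, 146 and 236 TPM in WT and at 179 and 111 TPM in KO. In experiment 3 it was at 288 and 126 TPM in WT and at 161 and 119 TPM in KO. In experiment 4 it was at 149, 128 and 151 TPM in WT and at 139 and 45.7 TPM in KO. In each of these experiments at least 1 KO library lay inside the WT range, above its lowest value. Experiment 2 was the one in which the ranges did not meet, with WT at 201, 162 and 141 TPM and KO at 74.0, 88.8, 68.9 and 37.8 TPM, the last being replicate 3b. The share of all genes whose ranges were apart within an experiment was not counted. With so few libraries per group, nothing is read from ranges that are apart, here or below.

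The log2 difference, KO minus WT, was -0.55 in experiment 1, -1.35 in experiment 2, -0.46 in experiment 3 and -0.82 in experiment 4. In a fit across all genes with limma, with the experiment as a term, it was -0.87 (SE 0.24). Without experiment 2 the difference was -0.62 (SE 0.31). Without the 3 libraries lowest in Pecam1 it was -0.67 (SE 0.22).

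**Figure D2:**
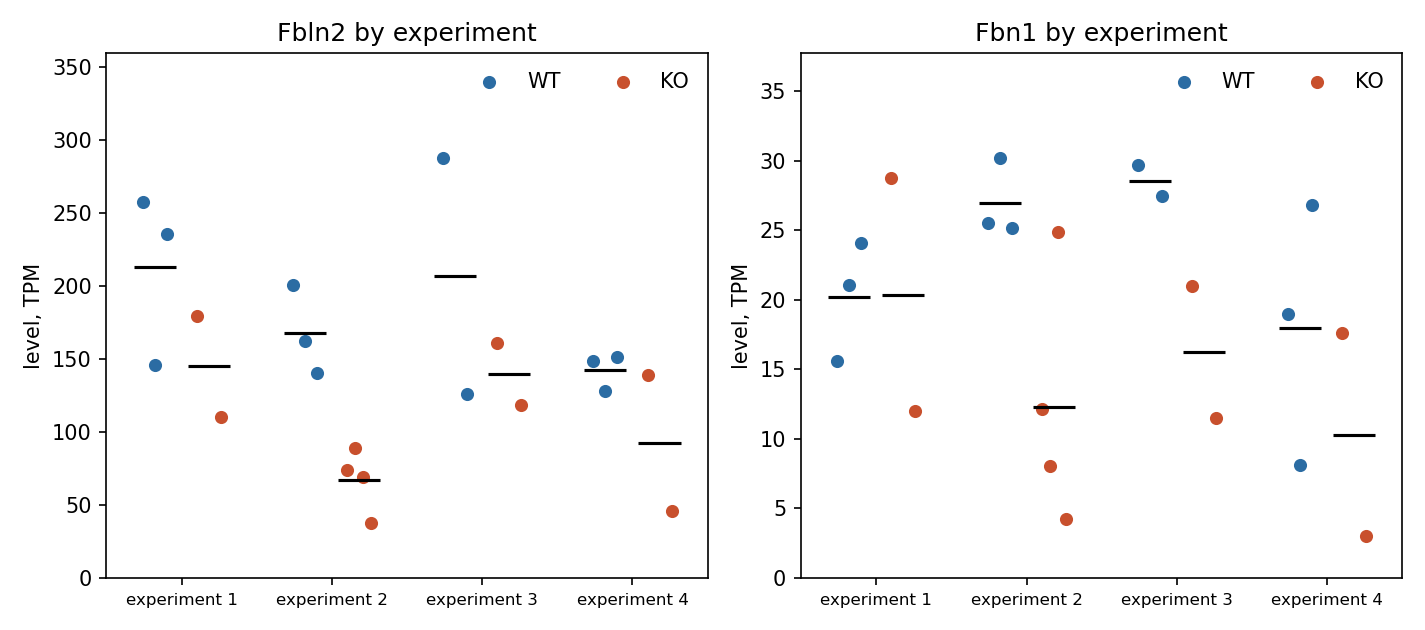
Level in TPM of Fbln2 (left) and Fbn1 (right) in each library by experiment; WT points are blue, KO points orange, and the black bar is the mean of the group in that experiment. For Fbln2 the ranges are apart in experiment 2 only, and for Fbn1 in experiments 2 and 3. The share of all genes with ranges apart was not counted.

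Markers of pericytes and smooth muscle, the mural cells that wrap vessels, were also lower in KO on average. All 8 mural markers kept by the filter had negative KO minus WT differences, none past the threshold, and their mean was lower by a log2 difference of -0.72 (SE 0.30). On the log2(TPM + 1) scale, the mural mean of experiment 2 lay at 0.84 to 2.37 in the 4 KO libraries. In the 3 WT libraries it lay at 2.77 to 3.26, so the ranges did not meet. Experiment 3 also had ranges apart, at 3.07 to 3.73 in KO and 3.81 to 4.26 in WT. Ranges overlapped in experiment 1, at 3.13 to 4.31 in KO and 2.99 to 4.67 in WT. They overlapped in experiment 4 too, at 2.16 to 3.05 in KO and 2.24 to 3.98 in WT. The 2 lowest mural means of all 21 libraries belonged to KO replicates 3a and 3b, at 0.84 and 1.08. These libraries also had the fewest genes above 0 of all, at 12178 and 12515. In the WT libraries of experiment 2 this number ran from 18024 to 19884. Mitochondrial genes made up 7.94% of the TPM in 3a and 17.2% in 3b, against 1.27% to 3.78% in those WT libraries. The part of gene detection in the mural means was not tested. With the mural mean as a covariate, an alternative added after the data were seen, the Fbln2 difference was -0.50 (SE 0.23), and with fibroblast and leukocyte means beside it -0.59 (SE 0.27). With the endothelial mean as the covariate it was -0.91 (SE 0.21). Of the mural markers, Rgs5 averaged 18.3 TPM in KO and 39.0 TPM in WT, Abcc9 20.6 and 21.8 TPM, and Tagln 12.1 and 19.4 TPM; Cnn1 was at 0 in 18 libraries. Fibroblast markers, 9 of 9 below 0 with a mean difference of -1.11 (SE 0.49), and leukocyte markers, 12 of 12 below 0 with -1.50 (SE 0.57), also stood lower in KO, and with both means as covariates the Fbln2 difference was -1.01 (SE 0.29). Of the endothelial markers 11 of 12 stood above 0, with a mean difference of 0.16 (SE 0.42), and of all genes 64.0% stood below 0. The part of other cell types in the Fbln2 difference was not tested.

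None of the other members was called between the genotypes. Of the 6 kept members other than Fbln2, 0 passed an adjusted p under 0.05 (limma, Benjamini-Hochberg over 13503 genes), beside 1 gene of all genes tested, or 0.00741%. Before adjustment 1 of the 6, Fbn1, was under 0.05, as were 794 of all genes. That contrast chose the set, so nothing is read from the count. The KO minus WT difference was below 0 for 6 of the 7, with a median of -0.36, and for 64.0% of all genes, with a median of -0.11. Shifting the libraries to a common median moved the median of all genes to -0.0063, and the Fbln2 difference to -0.76.

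Fbn1, the microfibril scaffold, had the difference nearest in size to that of Fbln2. Its values in WT ran from 8.12 TPM over a median of 25.1 TPM to 30.2 TPM, and in KO from 3.04 TPM over 12.1 TPM to 28.8 TPM. The ranges overlapped over the series and were apart in experiment 2, at 25.1 to 30.2 TPM in WT and 4.23 to 24.9 TPM in KO, and in experiment 3, at 27.5 to 29.7 TPM and 11.5 to 21.0 TPM. In experiment 1 the log2 difference was -0.089, so the lower level was not seen there. The fitted difference was -0.85 (SE 0.32, 95% interval -1.52 to -0.19; limma adjusted p = 0.820). With the mural mean as a covariate it was -0.43 (SE 0.34).

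Eln, the elastin precursor, ran from 1.23 TPM over a median of 95.6 TPM to 152 TPM in WT and from 5.39 TPM over 64.2 TPM to 129 TPM in KO. Its difference by experiment was -0.030, -1.83, 0.70 and -0.32, and only in experiment 2 were the ranges apart, with WT at 80.8 to 111 TPM and KO at 5.39 to 68.2 TPM. The fitted difference was -0.56 (SE 0.63, 95% interval -1.86 to 0.75), and it was 0.084 without experiment 2.

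The log2 differences of the fibulins of elastic fibre assembly changed sign between experiments, in part through single libraries. Fbln5 ran from 1.17 TPM over 53.8 TPM to 87.5 TPM in WT and from 7.96 TPM over 34.5 TPM to 64.7 TPM in KO, with differences by experiment of -0.53, -0.91, 0.65 and 0.31 and a fitted difference of -0.23 (95% interval -1.29 to 0.83). Efemp2 ran from 0 over 17.7 TPM to 54.9 TPM in WT and from 4.64 TPM over 11.6 TPM to 35.7 TPM in KO. Its differences by experiment were 0.95, -0.21, -0.85 and -1.46, and the fitted one was -0.36 (95% interval -1.41 to 0.70). Its ranges were apart in experiment 4, at 12.4 to 37.7 TPM in WT and 4.64 to 8.38 TPM in KO. The value of 0 came from WT replicate 3 of experiment 1, where the other libraries of that experiment held 11.7 to 54.9 TPM. Without that library the fitted difference of Efemp2 was -0.73. The ratio of its mean TPM in KO to that in WT was 0.77, 0.99, 0.46 and 0.30 in experiments 1 to 4. For Fbln5 this ratio was 0.70, 0.57, 1.05 and 0.86. Without WT replicate 2 of experiment 4, where Fbln5 was at 1.17 TPM, its fitted difference was -0.57.

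Fn1 had the difference nearest to 0. It ran from 94.8 TPM over 378 TPM to 879 TPM in WT and from 157 TPM over 443 TPM to 780 TPM in KO, and the ranges overlapped in all 4 experiments. The fitted difference was 0.0085 (SE 0.32, 95% interval -0.64 to 0.66). Efemp1 was at 10.3 ± 6.89 TPM in WT (SD, n = 11) and at 10.4 ± 9.92 TPM in KO (SD, n = 10). Its fitted difference was -0.047 (95% interval -1.14 to 1.05), and the highest value, 34.6 TPM, and the lowest, 0, were both KO libraries of experiment 4. Fbln1 reached 1 TPM in 2 libraries, WT replicate 2 of experiment 3 at 5.02 TPM and WT replicate 3 of experiment 2 at 2.14 TPM, and was listed at 0 in 11.

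**Figure D3:**
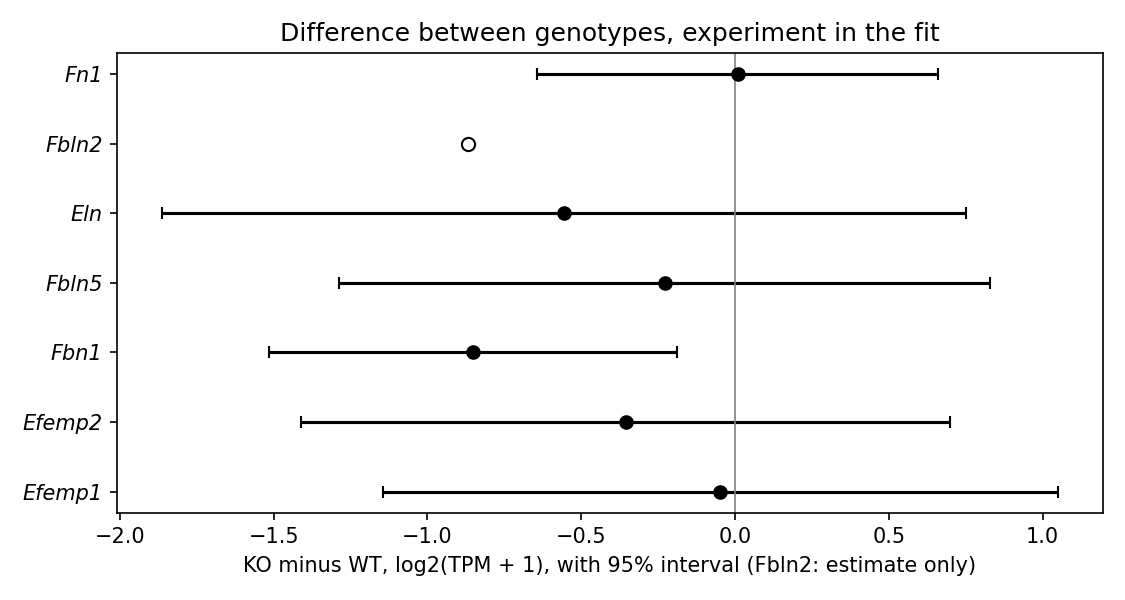
Fitted KO minus WT difference of the 7 genes kept, on the log2(TPM + 1) scale; points are estimates and bars 95% intervals from the limma fit, and Fbln2, for which the set was chosen, is an open point with no interval. The intervals of Fn1, Eln, Fbln5, Efemp2 and Efemp1 span 0, and that of Fbn1, which did not pass the adjustment over all genes, runs from -1.52 to -0.19.

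Whether the members' levels differed between the 4 experiments does not depend on how the set was chosen. None of the 7 was called (limma F test, adjusted p from 0.0896 for Fn1 to 0.621 for Efemp2), beside 29.1% of all genes. Before adjustment 1 of the 7, Fn1, was under 0.05, as were 6288 of all genes (46.6%). With experiment 2 left out, 4 of the 12026 genes then tested were called between experiments. With so few members, nothing is read from their count. Fn1 averaged 543 ± 234 TPM (SD, n = 5) in experiment 1, 457 ± 204 TPM (n = 7) in experiment 2, 606 ± 264 TPM (n = 4) in experiment 3 and 253 ± 128 TPM (n = 5) in experiment 4. For Fbln2 the adjusted p was 0.136. A p above the threshold does not show that the levels were alike. The genotype effect was tested for differing between experiments in the 6 members other than Fbln2, and none was called (limma F test, adjusted p = 0.9996 for each), as for 0% of all genes; before adjustment 0 of the 6 and 518 of all genes were under 0.05.

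The members were then set against the mean level of marker lists, after experiment and genotype had been taken out of both, so that these relations do not rest on the contrast that chose the set. The 21 libraries come from 17 tumours, so they are not all independent. Permutation tests drew 100000 resamples within experiments, and p-values were adjusted over the 28 relations of 7 members with 4 lists, of which 9 passed by Pearson's r.

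Fbln5 and Eln followed the endothelial markers most closely. For Fbln5 r was 0.93 and rho 0.91 (permutation adjusted p = 0.00406 for both), and for Eln r was 0.88 (permutation adjusted p = 0.00679) and rho 0.89 (permutation adjusted p = 0.0056). Leaving out the 2 libraries farthest from the median of the marker values gave r of 0.87 and 0.80. Within experiments the r of Fbln5 was -0.44, 0.89, 1.00 and 0.99 in experiments 1 to 4, which hold 4 to 7 libraries each, so that it did not hold in experiment 1; that of Eln was 0.66, 0.59, 0.94 and 0.99. Without the 3 libraries lowest in Pecam1 the r of Fbln5 was 0.85, with a permutation adjusted p of 0.0609.

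Efemp1 and Fn1 followed the endothelial mean in the full set of libraries. For Efemp1 r was 0.82 and rho 0.73 (permutation adjusted p = 0.022 and 0.0221), and for Fn1 r was 0.68 and rho 0.65 (permutation adjusted p = 0.00924 and 0.0259). Without the 2 farthest libraries r was 0.76 and 0.55. Without the 3 libraries lowest in Pecam1 r fell to 0.34 and 0.30, with permutation adjusted p of 0.311 and 0.468. Neither relation passed the threshold without those libraries. Within experiment 3, which holds 4 libraries, the r of Fn1 was -0.84, and in experiments 1, 2 and 4 it was 0.75, 0.96 and 0.98; that of Efemp1 was 0.62, 0.57, 0.68 and 0.91 in experiments 1 to 4.

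Fbln2 followed the mural markers. Its r with the mural mean was 0.67 and its rho 0.76 (permutation adjusted p = 0.00829 and 0.00406), and r was 0.66 without the 2 farthest libraries. Within experiments it was 0.89, 0.64, 0.80 and 0.57. Over 25 alternatives it ran from 0.55 to 0.70. With the endothelial mean the r of Fbln2 was 0.46 (permutation adjusted p = 0.142; rho 0.52), with the fibroblast mean -0.12 and with the leukocyte mean -0.25. Within experiments 1 to 4 the r of Fbln2 with the endothelial mean was 0.65, 0.18, 0.98 and 0.58. Without the 3 libraries lowest in Pecam1, the r of Fbln2 with the endothelial mean was 0.77 (permutation adjusted p = 0.017). Its r with the mural mean was then 0.69 (permutation adjusted p = 0.017). Eln also followed the mural mean, at r 0.75 and rho 0.67 (permutation adjusted p = 0.00028 and 0.00588), as did Fbln5, at r 0.64 and rho 0.63 (permutation adjusted p = 0.00616 and 0.0158). Fbn1 stood at r 0.53 (permutation adjusted p = 0.0766) and rho 0.66 (permutation adjusted p = 0.0221). Without the 3 libraries lowest in Pecam1 its r was 0.41 (permutation adjusted p = 0.372). Over 25 alternatives its r ran from 0.39 to 0.81, the highest being without KO replicate 3a of experiment 2. In that library Fbn1 was at 24.9 TPM, although its mural mean was the lowest of all.

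**Figure D4:**
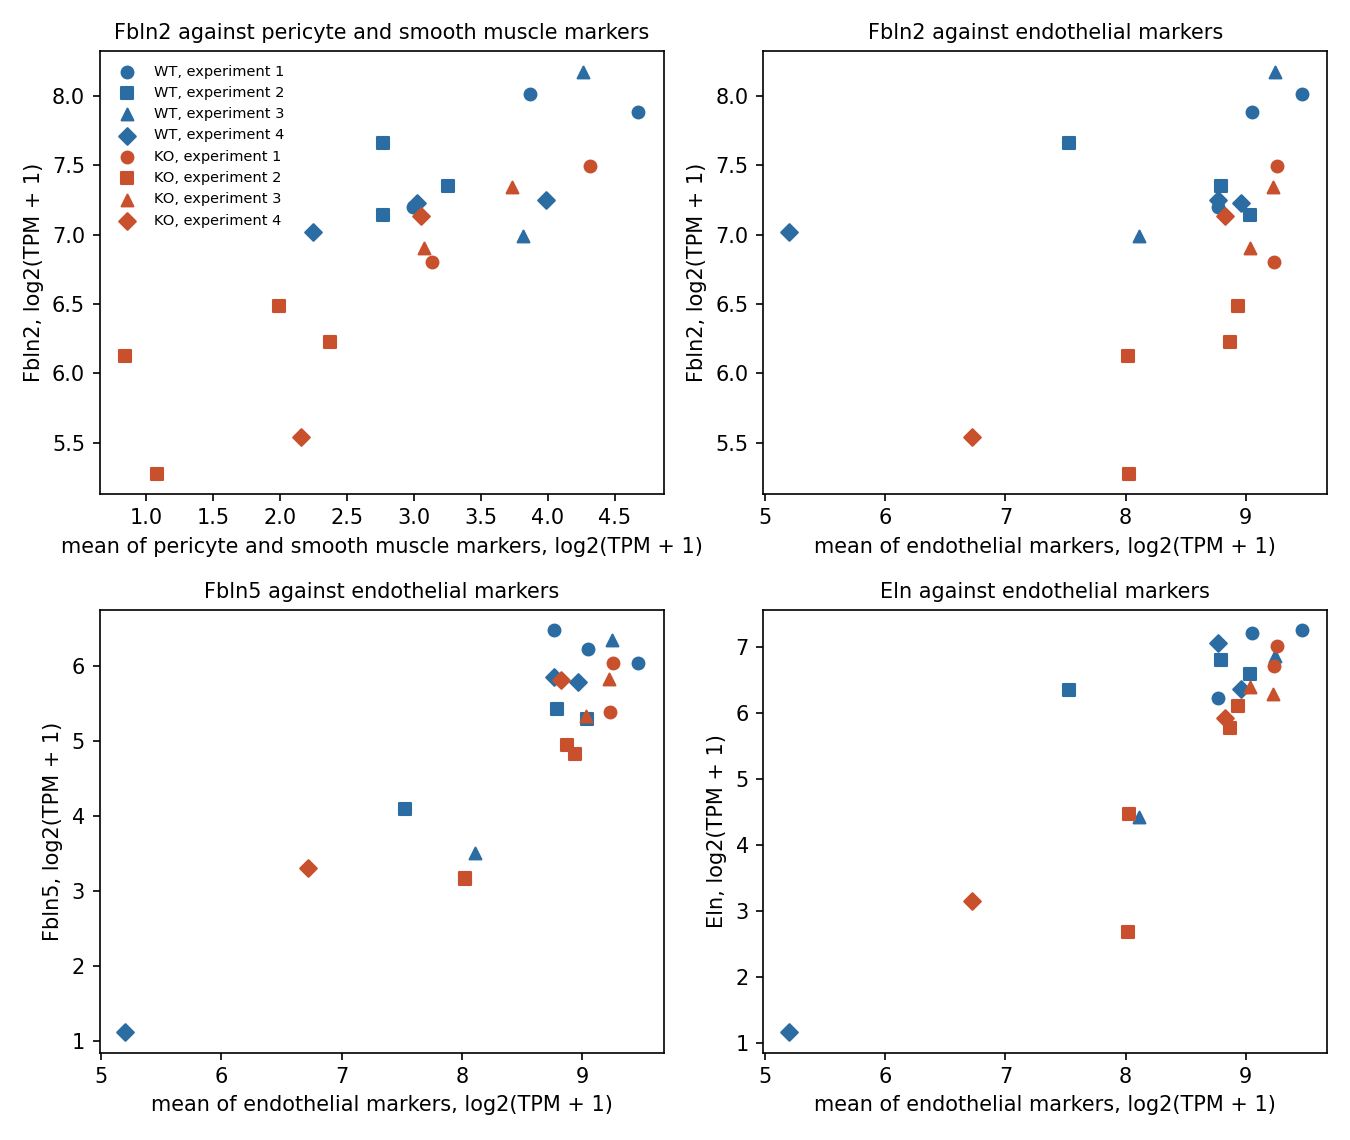
Level of Fbln2 against the mean of 8 pericyte and smooth muscle markers (upper left), and of Fbln2, Fbln5 and Eln against the mean of 12 endothelial markers, all on the log2(TPM + 1) scale with nothing taken out; each point is a library, coloured by genotype (WT blue, KO orange) and shaped by experiment. In the library with the lowest endothelial mean (5.20), Fbln5 and Eln are at their lowest while Fbln2 is among the WT values.

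The remaining relations were weaker. Fbln5 had negative r with the leukocyte mean (-0.64, permutation adjusted p = 0.0468; rho -0.58) and the fibroblast mean (-0.54, permutation adjusted p = 0.0438; rho -0.53). The rho of each had a permutation adjusted p of 0.0624, and the r missed the threshold in 14 and 13 of 25 alternatives. Without WT replicate 2 of experiment 3, the library highest in leukocyte markers, these r were -0.54 and -0.39. Efemp2 did not follow any list, with r of -0.29 for endothelial, -0.51 for mural, 0.27 for fibroblast and 0.26 for leukocyte markers (permutation adjusted p of 0.143, 0.108, 0.345 and 0.271). No list of the 4 was past the threshold by r for Fbn1 either.

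**Figure D5:**
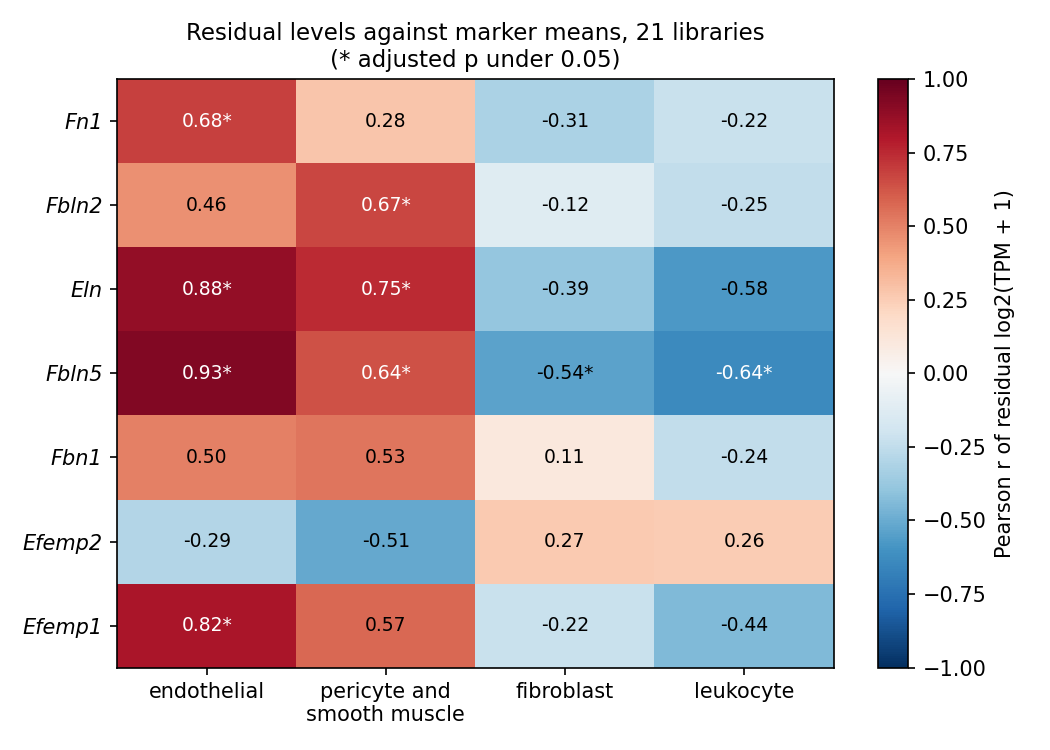
Pearson r between each of 7 genes (rows) and the mean of 4 marker lists (columns), from residual log2(TPM + 1) after experiment and genotype were taken out, over 21 libraries; red is positive, blue is negative and a star marks a permutation adjusted p under 0.05. Fbln5, Eln, Efemp1 and Fn1 have their highest r with endothelial markers and Fbln2 and Fbn1 with pericyte and smooth muscle markers.

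Among the members themselves, 3 of 21 pairs passed by the same residual measure, which was added after the data were seen. Fbln5 and Eln had an r of 0.92 and rho of 0.89 (permutation adjusted p = 0.00945 and 0.00966), 0.87 without the 2 farthest libraries. Efemp1 and Eln had an r of 0.74 and rho of 0.67 (permutation adjusted p = 0.031 and 0.0333). Fbln2 and Fbn1 had an r of 0.64 and rho of 0.63 (permutation adjusted p = 0.031 and 0.0333), and r was 0.43 without the 2 farthest libraries, KO replicate 3b of experiment 2 and KO replicate 2 of experiment 4. Within experiments the r of Fbln2 and Fbn1 was 0.56, 0.59, 0.44 and 0.88, that of Efemp1 and Eln 0.73, 0.52, 0.75 and 0.88, and that of Fbln5 and Eln -0.49, 0.83, 0.96 and 0.99.

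The genes whose residual levels were most like each member were ranked by Pearson r among 10800 genes over the 21 libraries, as a description. For Fbln2 these were Ndufb11 (r = 0.82), Akap1 (r = 0.81), Slc35b2 (r = 0.81), Rnf187 (r = 0.80), Tril (r = 0.80) and Cyb561 (r = 0.80). For Fbln5 they were Tspan18 (r = 0.97) and Sdpr (r = 0.96), and for Eln Ackr1 (r = 0.94), a chemokine-binding receptor of venular endothelium, and Tspan12 (r = 0.94). For Efemp1 they were Nxpe2 (r = 0.93) and Smagp (r = 0.92), for Fn1 Zbp1 (r = 0.93) and Bmp2 (r = 0.92), for Efemp2 Crls1 (r = 0.87) and Ncapg (r = 0.85), and for Fbn1 Mgst1 (r = 0.79) and 9130019O22Rik (r = 0.79).

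The wider elastic fibre and matrix genes were taken from 5 lists, and none of the 42 genes tested in them was called between genotypes (limma). Before adjustment 7 of them (16.7%) were under 0.05, as were 5.88% of all genes. Beside the counts by direction below, 64.0% of all genes stood below 0, with a median of -0.11. The binding partners of fibulin-2 in basement membrane and matrix were split, with 6 of 11 above 0, 5 below and a median of 0.0032. Hspg2, which encodes perlecan, averaged 918 ± 429 TPM in the WT libraries (SD, n = 11) and 895 ± 401 TPM in the KO libraries (SD, n = 10), and Nid1 397 ± 189 and 394 ± 186 TPM. By the smallest p the named genes of this list are Vcan, which encodes versican, with -0.51 (SE 0.24), Col18a1 with -0.17 (SE 0.28), Lamc1 with -0.17 (SE 0.28) and Lama4 with 0.17 (SE 0.34). Hspg2 and Nid1 were chosen after their values were seen.

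Of 10 other fibulin and elastic fibre genes, 2 stood above 0 and 8 below, with a median of -0.32. These included the TGF-beta binding protein Ltbp1 at -0.80 (SE 0.46) and Emilin2 at -0.98 (SE 0.69), against Adamts10 at 0.32 (SE 0.23), with Adamtsl4 at -0.41 (SE 0.35). Of 4 enzymes that crosslink elastin and collagen, 3 stood below 0, with a median of -0.37. Loxl2 averaged 7.45 ± 7.88 TPM in the WT libraries (SD, n = 11) and 1.62 ± 2.03 TPM in the KO libraries (SD, n = 10), a difference of -1.55 (SE 0.49, limma adjusted p = 0.820), and Loxl4 43.4 ± 18.4 and 60.6 ± 29.0 TPM, a difference of 0.36 (SE 0.24). Lox, the founding member of the family, was at -0.49 (SE 0.38) and Loxl3 at -0.24 (SE 0.58).

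Of 7 integrin subunits that bind fibronectin or fibulins, 6 stood below 0, with a median of -0.15. Itga4, a subunit carried by leukocytes, was at -1.01 (SE 0.41), Itgb5 at -0.57 (SE 0.36), Itgb1, the beta chain of the classical fibronectin receptor, at -0.16 (SE 0.24) and Itgav at -0.15 (SE 0.27). Of 10 proteases and inhibitors, 9 stood below 0, with a median of -0.75. Among them the matrix metalloproteinases Mmp2 at -1.20 (SE 0.43) and Mmp12 at -2.05 (SE 0.94), the macrophage cathepsin Ctss at -1.96 (SE 0.90) and the inhibitor Timp2 at -0.92 (SE 0.32) had limma adjusted p of 0.820 each. Mmp12 ranged widely, with a WT mean of 114 ± 311 TPM (SD, n = 11) and a KO mean of 6.08 ± 7.87 TPM (SD, n = 10), and the leukocyte markers stood lower in KO, as given above; their part in these differences was not tested.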

How the data were processed

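The deposited table holds TPM computed by the authors for 45706 genes in 21 libraries, written with decimal commas, and each column sums to between 999999.2 and 1000000.6. Per the submitters' processing notes the build was GRCm38; which aligner and counter were used is not given in the sources used here. Per the labels' protocols, libraries were made from 30 ng of total RNA with a stranded kit after ribosomal RNA depletion and read in pairs of 150 bases. TPM keeps no depth, so no counting interval is given. The 27 gene names that had turned into dates were replaced by the symbols of their Ensembl identifiers.

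Libraries were placed by column name. A pair of columns share the header of KO replicate 3 of experiment 2, no column names KO replicate 3 of experiment 4, and both entered as KO libraries of experiment 2. The filter kept the 13503 genes that reached 1 TPM in 10 or more libraries. Values of log2(TPM + 1) were fitted with limma 3.58.1 (statmod 1.5.0, R 4.3.3), trended and robust, with genotype and experiment, and a Benjamini-Hochberg adjusted p under 0.05 was called. Differences on this scale understate the change of low genes. The fit was tested on simulated data. Correlations used residuals and permutation tests in Python 3.11.15 (scipy 1.17.1, numpy 2.4.6, pandas 2.3.3), and figures were drawn with matplotlib 3.10.9.

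The members and gene lists were chosen with earlier results of these data known. Beside the 8 members, the text names up to 4 genes of each list by smallest p, the 3 highest pericyte and smooth muscle markers, and the genes most correlated with each member (6 for Fbln2, 2 for the others; mean log2 level of at least 2). Which libraries share a tumour is not labelled, and spread within tumours therefore enters the p-values. Alternatives were the pseudocount, filter, scaling, variance prior, experiment term, replicate block, placement of the shared-header libraries, each library or experiment left out, the 3 libraries lowest in Pecam1 left out, and marker means as covariates. The covariate fits with pericyte and smooth muscle markers, the placement of KO replicate 3b combined with leaving out those 3 libraries, and the correlations between members were added after the data were seen.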

Additional observations from a re-analysis of the deposited data

Results flagged for a closer look

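Fbln1 in KO replicate 3b of experiment 2 stood at 0.729 TPM, apart from the other 3 KO libraries of that experiment, of which the nearest was at 0.07 TPM. The gap took 0.876 of the range of the 4 libraries. Among the 16 groups of 4 or more libraries looked at, 1 library stood apart in this way, and chance gives about 1 in 20 groups. The value lies below the 1 TPM used as the minimum level, and the placement of this library is among the alternatives.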

How the results depend on the processing

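Over 43 alternatives the Fbln2 difference, whose sign the choice of genes had largely fixed, ran from -1.01 to -0.50 and that of Fbn1 from -1.09 to -0.43. With the pericyte and smooth muscle mean as a covariate, Fbln5 turned to 0.68, Efemp1 to 0.76 and Eln to 0.71, and Efemp2 moved to -1.06. With fibroblast and leukocyte covariates Fbln5 moved to -1.28, Efemp1 to -0.69 and Eln to -1.63, and with the endothelial one Fbln5 to -0.44, Efemp1 to -0.23 and Eln to -0.79. Without both shared-header libraries Fbln5 was at 0.070 and Efemp1 at 0.0095, and without experiment 2 Fbln5 was at 0.11 and Eln at 0.084. Efemp1 turned to 0.060 on a common median, 0.17 under quantile normalization, 0.0010 without experiment 4, 0.077 without the 3 libraries lowest in Pecam1 and 0.13 with 3 marker means as covariates. Efemp2 turned to 0.082 with fibroblast and leukocyte covariates and to 0.0017 with KO replicate 3b placed in experiment 4 and those 3 libraries left out. Fn1 turned to -0.070 without experiment 1, -0.0087 without experiment 3, -0.20 without those 3 libraries, -0.16 with KO replicate 3b moved as well, -0.24 with fibroblast and leukocyte covariates and -0.078 with the endothelial one. With 1 library left out at a time, Efemp1 ran from -0.45 to 0.38, Fn1 from -0.17 to 0.12, the r of Fbln2 with the fibroblast mean from -0.30 to 0.21 and with the leukocyte mean from -0.33 to 0.047, and the number of marker relations past the threshold from 6 to 12. That number was 4 without the 3 libraries lowest in Pecam1. Eln was the 1 member called between experiments with the pericyte and smooth muscle covariate (limma adjusted p = 0.0494) and the 1 called with 3 marker covariates (limma adjusted p = 0.0145). The cause of these changes was not tested.

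Whether the replicate numbers pair the libraries could not be decided, because only same-numbered libraries were compared. The correlation of their deviations was 0.32 and 0.36 in experiment 4, and ran from -0.20 to 0.082 in the other experiments. With a replicate block of experiment and number the Fbln2 difference was -0.82, that of Fbn1 -0.77, Efemp2 -0.81, Eln -0.22, Fbln5 -0.014, Fn1 0.016 and Efemp1 0.21, and no member was called in that fit. Without read counts, the precision behind low values such as those of Fbln1 is unknown.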
